A study of Mus musculus with 2 samples.

Results

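The pan-neuronal differentiation genes examined here were Tubb3, Dcx, Map2, Stmn2, Elavl3, Elavl4, Rbfox3, Myt1 and Myt1l. Of the 119502 accessible intervals, 160 had a start site of these 9 genes as their nearest protein-coding transcription start site (TSS) and were assigned to them. Distance was taken from the edge of the interval, and an interval overlapping a TSS had a distance of 0. Of the 160 intervals, 16 overlapped a TSS and are called promoter intervals, and the other 144 are called distal.

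Open chromatin was profiled with ATAC-seq, which uses the Tn5 transposase to cut and tag accessible DNA. The mouse embryonic stem cell line Olig2-mKate2 carries the fluorescent protein mKate2 as a reporter of Olig2, which encodes a factor that defines the motor neuron progenitor (pMN) domain. Cells labelled as neural progenitors (NPs) were differentiated to day 5, with 100 nM retinoic acid and 100 nM SAG, an agonist of Sonic hedgehog signaling, added from day 3. Live mKate2-positive cells were sorted, and 50000 cells entered each transposition. There was 1 group of 2 replicates and no second condition, so each value below describes this group. The sources do not say whether the replicates were separate cultures, and the SDs cover the spread between these libraries, which may be technical. The reporter is limited as a marker of progenitors, because the study states that the sorted cells include newly differentiated motor neurons and some cells that also carry NKX2.2. In such bulk material, fewer open cells and less open chromatin in each cell cannot be told apart.

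Pan-neuronal genes are switched on in almost every type of neuron when a progenitor leaves the cell cycle, and they are kept low in dividing progenitors and in non-neural tissue. Their products build the neuronal cytoskeleton (Tubb3, Map2, Dcx, Stmn2), process neuronal RNA (Elavl3, Elavl4, Rbfox3) or regulate transcription (Myt1, Myt1l). Proneural bHLH factors, which bind E-boxes, activate such genes, and the repressor REST, which binds the RE1 element, holds many of them off outside neurons.

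The promoter sequences shown next were chosen to set the 2 most accessible genes beside Dcx, the least accessible. They are RefSeq windows of GRCm38.p6, from 250 bases before to 50 after an annotated start, read 5′ to 3′ on the strand of the gene. The RefSeq table held 18 such windows for 8 of the 9 genes, and it held none for Stmn2. Capitals mark the GC box GGGCGG and the E-boxes CAGATG and CAGCTG on either strand. The Elavl4 upstream window lay at chr4:110351862-110352161, the Elavl4 internal window at chr4:110287462-110287761, the Tubb3 window at chr8:123411303-123411602 and the Dcx window at chrX:143933075-143933374.
Elavl4, upstream start: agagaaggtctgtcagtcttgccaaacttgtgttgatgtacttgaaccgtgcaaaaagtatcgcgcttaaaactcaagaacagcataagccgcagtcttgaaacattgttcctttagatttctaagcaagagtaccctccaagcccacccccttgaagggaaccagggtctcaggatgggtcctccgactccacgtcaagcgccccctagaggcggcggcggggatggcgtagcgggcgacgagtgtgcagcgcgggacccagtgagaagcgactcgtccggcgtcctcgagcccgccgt
Elavl4, internal start: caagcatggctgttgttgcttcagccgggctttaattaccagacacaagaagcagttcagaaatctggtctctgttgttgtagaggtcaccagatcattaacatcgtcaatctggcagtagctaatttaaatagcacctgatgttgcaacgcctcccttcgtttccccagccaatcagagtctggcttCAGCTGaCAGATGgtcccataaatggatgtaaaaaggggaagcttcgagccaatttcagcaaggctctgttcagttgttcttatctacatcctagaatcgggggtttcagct
Tubb3: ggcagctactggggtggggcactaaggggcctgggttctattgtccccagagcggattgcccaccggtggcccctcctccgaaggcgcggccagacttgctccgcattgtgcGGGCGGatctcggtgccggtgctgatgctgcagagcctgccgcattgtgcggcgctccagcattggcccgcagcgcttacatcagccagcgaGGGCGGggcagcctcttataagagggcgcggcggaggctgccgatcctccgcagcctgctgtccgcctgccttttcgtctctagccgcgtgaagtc
Dcx: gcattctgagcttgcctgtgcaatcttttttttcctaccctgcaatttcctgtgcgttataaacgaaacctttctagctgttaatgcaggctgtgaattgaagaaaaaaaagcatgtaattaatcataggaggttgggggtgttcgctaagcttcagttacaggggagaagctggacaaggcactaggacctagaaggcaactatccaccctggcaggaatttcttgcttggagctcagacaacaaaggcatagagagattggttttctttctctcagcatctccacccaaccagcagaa
The Elavl4 internal window held both E-boxes 1 base apart, and the Tubb3 window held 2 GC boxes. The Elavl4 upstream window and the Dcx window held neither an E-box nor a GC box in these letters, but they differed in CpG observed over expected, the number of CG dinucleotides relative to that expected from the base content. This ratio was 0.944 in the Elavl4 upstream window and 0.201 in the Dcx window, with 0.765 for Tubb3 and 0.378 for the Elavl4 internal start. Over all 32817 RefSeq promoter windows, 35.6% held the GC box, 17.2% CAGATG and 16.3% CAGCTG.

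The libraries held 31876165 counts in replicate 1 and 31672240 in replicate 2, and the assigned intervals held 28499 and 29019 of them. Levels are given as normalised counts per kb of interval, hereafter the density, as mean ± SD over both replicates. With 2 libraries of 1 group, likeness of pattern to other genes could not be measured, and no test between genes was made. As a check of the labels, all 5 pMN genes listed (Olig2, Nkx6-1, Sox2, Pax6 and Olig1) had a promoter interval, with densities between 613 and 1452. Of the 5 motor neuron genes listed, 4 had a promoter interval, with Isl1 at 1087, Mnx1 at 557, Lhx3 at 376 and Slc18a3 at 300. Isl1 was above every listed pMN gene except Nkx6-1, and the choline acetyltransferase gene Chat had no promoter interval. Of the 4 fibroblast genes for the feeder cells, 3 had a promoter interval and the highest was 291. Of the 4 pluripotency genes, 2 had a promoter interval and the highest was 282, and Pou5f1 and Nanog had none. Of 3 genes of unrelated tissues, 1 had a promoter interval, at 172. The part of motor neurons in the values of the pan-neuronal genes was not tested.

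Each of the 9 genes had a promoter interval, as did 14623 of the 21842 protein-coding genes with a start site used. Not every start site of the 9 genes was covered, as given below for each gene. In density 8 of the 9 genes lay below the median gene. Elavl4 had the highest promoter density and Dcx the lowest, and the mean of Elavl4 was 11.3 times that of Dcx. The median over the 9 genes was 348, against 853 over the 14623 genes with a promoter interval. Counting the promoter interval or intervals of each gene together, Elavl4 was the only gene whose mean exceeded that median, and its replicates lay on either side of it.

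Among the cytoskeletal genes, Tubb3, which encodes the neuronal β-tubulin, had the most accessible promoter. Its density was 715 in replicate 1 and 713 in replicate 2, at 714 ± 1.57 (SD, n = 2), the 40.3 percentile of genes with a promoter interval. Map2, which encodes a microtubule-associated protein of dendrites, was at 375 and 384, or 379 ± 6.05 (SD, n = 2). Stmn2, whose product binds tubulin in growth cones, was at 227 and 236, or 231 ± 6.37 (SD, n = 2). The Map2 and Stmn2 promoters thus stood at the 18.5 and 10.4 percentiles. Dcx, which encodes a microtubule-binding protein of migrating young neurons, was at 70.9 and 81.9, or 76.4 ± 7.77 (SD, n = 2). This placed the Dcx promoter at the 2.14 percentile of genes with a promoter interval and at the 2.49 percentile of those on the X chromosome, where the median was 505. Dcx was thus low beside other X-linked genes as well, and below the 172 of the gene of an unrelated tissue.

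Of the RNA-binding genes, Elavl4 and Elavl3 encode neuronal Hu proteins that bind AU-rich RNA, and Rbfox3 encodes the splicing factor known as NeuN. Elavl4 was at 849 and 884, or 867 ± 24.7 (SD, n = 2). Elavl3 was at 584 and 556, or 570 ± 20.1 (SD, n = 2). Rbfox3 was at 348 and 347, or 348 ± 1.07 (SD, n = 2). Per kb, the Hu genes were therefore higher than Rbfox3 in both replicates, at the 50.9 and 30.5 percentiles against 16.6. In normalised counts per interval, Elavl3 (1344) was above Rbfox3 (705), but Elavl4 (690) was slightly below it.

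Myt1 and Myt1l encode zinc-finger transcription factors, of which Myt1l is known to repress non-neuronal genes. Myt1 was at 303 and 314, or 309 ± 7.46 (SD, n = 2). Myt1l was at 294 and 273, or 283 ± 15.1 (SD, n = 2). Both factor genes stood in the lower part of the list, at the 14.4 and 12.9 percentiles. In descending order the genes were Elavl4, Tubb3, Elavl3, Map2, Rbfox3, Myt1, Myt1l, Stmn2 and Dcx, and at each step the lower replicate of the higher gene exceeded the higher replicate of the next. Counted per interval instead of per kb, the order differed, with Tubb3 highest at 2176 normalised counts and Elavl4 in the middle at 690, and Dcx was still lowest at 152.0. The promoter intervals of the genes were longer than others, with a median of 1642.5 bases against 1212 over all promoter intervals. Their median per interval was 595 normalised counts, against 1033 over all promoter intervals. Tubb3 and Elavl3 (1344) exceeded that background per interval, and Elavl4 did not.

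**Figure D1:**
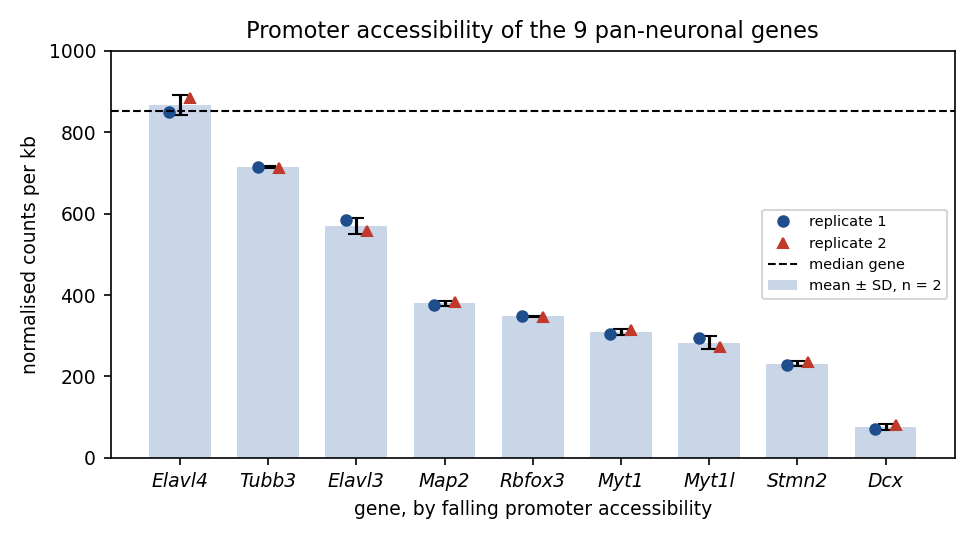
Promoter density in normalised counts per kb for each gene, with bars for the mean, error bars for the SD of 2 replicates, points for each replicate and a dashed line at the median gene (853). Elavl4 straddles the line at 849 and 884, and the other genes fall stepwise to Dcx at 76.4.

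Several genes have more than 1 promoter, and these differed widely. Elavl4 spans chr4:110203722-110351909 on the minus strand, and 5 of its 7 start sites lay in intervals of their own. The upstream start lay in chr4:110351145-110352260, with 1658 and 1767 counts and a density of 1534 ± 68.2. It ranked above 86.0% of all promoter intervals. The internal promoter at chr4:110289722-110290386 was at 1059 ± 4.70, and that at chr4:110287482-110287939, whose paired E-boxes are shown above, was at 776 ± 50.5. The remaining internal promoters were at 396 ± 10.3 (chr4:110285271-110286751) and 346 ± 43.3 (chr4:110292537-110292796). The upstream promoter of Elavl4 was thus the most open promoter of the 9 genes.

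Map2 spans chr1:66175273-66442583, and 6 of its 15 start sites were covered by 3 intervals. The outer promoter at chr1:66174852-66176425 had 1072 and 1097 counts and a density of 689 ± 10.8. The internal promoters were lower, at 228 ± 23.3 and 153 ± 5.05. The outer promoter alone would place Map2 beside Tubb3. Rbfox3, at chr11:118489762-118911597 on the minus strand, had a promoter at chr11:118908279-118910303 with a density of 461 ± 4.11 and an internal promoter at 234 ± 1.95.

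In Myt1l, at chr12:29528384-29923213, the outer start was not inside an interval, and the nearest interval lay 599 bases from it. Of the 4 Myt1l start sites, 1 was covered, by the interval chr12:29534551-29535452. In Myt1, at chr2:181763332-181827797, 1 of 6 start sites was covered. The Tubb3 promoter interval was the longest of these, at chr8:123410173-123413218, and also overlapped the annotated genes Mc1r and Gm20388, whose counts cannot be separated from those of Tubb3. In Dcx, at chrX:143855842-143933311 on the minus strand, all 4 start sites lay in the interval chrX:143931407-143933396, which had 141 and 163 counts. Stmn2 has 1 start site, in the interval chr3:8509099-8511709, and Elavl3 had 2 of 3 starts in chr9:22049835-22052191. The Elavl3 promoter interval also overlapped the annotated gene Gm49318, whose counts cannot be separated from those of Elavl3.

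The promoter intervals were poorer in CpG than those of other genes. The median CpG observed over expected was 0.406 in the 16 promoter intervals, with a range of 0.183 (Dcx) to 0.846 (the upstream Elavl4 promoter), against 0.680 over all 14870 promoter intervals. The median GC content was 51.5%, against 59.9%. Density rose with this ratio over all promoter intervals, with a Spearman rho of 0.556, and rho was 0.465 over the 16 intervals. These are descriptions, since intervals of 1 library share its depth and base composition.

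When all promoter intervals were split into 10 equal classes by CpG observed over expected, 11 of the 16 fell in the lowest 3 classes. The median density of all promoters was 151 in the lowest class, 323 in the next and 566 in the one after that. Of the 16 intervals, 9 exceeded the median of their own class. These included all 5 promoter intervals of Elavl4, whereas every promoter interval of Rbfox3, Myt1l, Stmn2, Elavl3 and Dcx lay below. The internal Elavl4 promoter with the paired E-boxes was at the 94.1 percentile of its class, Tubb3 at the 80.6 and Myt1 at the 76.1. At the other end, the Rbfox3 promoters, with ratios of 0.692 and 0.703, stood at the 14.3 and 3.09 percentiles of their class. These ratios were near the median of 0.680 over all promoter intervals. Dcx stood at the 22.3 percentile of its class. Beside promoters of like CpG content, the 16 intervals were therefore spread on both sides of the median, with Elavl4 supplying most of those above. An Rbfox3 promoter was lowest.

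**Figure D2:**
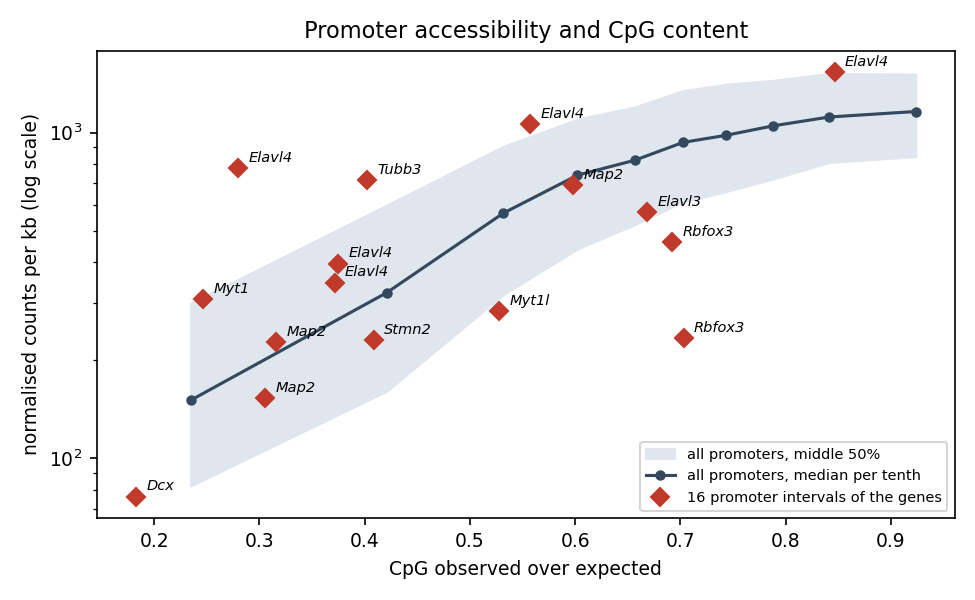
Promoter density in normalised counts per kb (log scale) against CpG observed over expected, with the median and middle 50% of all promoters in 10 classes and the 16 promoter intervals of the genes as diamonds. The genes lie on both sides of the line, with an Elavl4 internal promoter (776) far above it and both Rbfox3 promoters (461 and 234) below.

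The genes were next set beside relatives in the same families. Each of the 6 broadly expressed paralogues had a promoter density above the gene median, with a median of 1808. In the β-tubulin family, Tubb5 was at 902 ± 57.3 and Tubb4b at 2894 ± 3.34, both above Tubb3 in each replicate. Stmn1 was at 1281 ± 13.5, against 231 for Stmn2. Elavl1, which encodes the ubiquitous HuR, was at 2336 ± 63.7, above both Elavl3 and Elavl4. Rbfox2 was at 920 ± 39.8 and Map4 at 2646 ± 73.2, again above Rbfox3 and Map2. In all 7 pairs of a gene with its broadly expressed paralogue, over 5 families, both replicates of the paralogue exceeded both of the pan-neuronal gene. Elavl1 was paired with both Elavl3 and Elavl4. The paralogues were chosen with earlier results of these data known, so the pairs are a description and not independent support.

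The neuronal relatives were mixed. Tubb2b was at 1599 ± 31.7, above Tubb3, and Tubb2a at 417 ± 5.20, below it. Stmn3 was at 685 ± 39.9 and Stmn4 at 94.4 ± 1.36, on either side of Stmn2. Elavl2 was at 999 ± 7.001, Mapt at 641 ± 8.58 and Dclk1, the relative of Dcx, at 786 ± 5.11. St18 and Rbfox1, added after the values were seen, were at 225 ± 4.32 and 211 ± 5.09, lower than their relatives Myt1l and Rbfox3. Over the whole list of 18 related neuronal genes, 17 had a promoter interval, 6 were above the gene median and the median density was 680, higher than the 348 of the 9 genes. Of 9 progenitor effector genes such as Nes and Hes5, 5 were above the gene median, and the median was 1163. Of 11 regulators of neuronal genes, which included Rest, 8 were above it, and the median was 911.

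**Figure D3:**
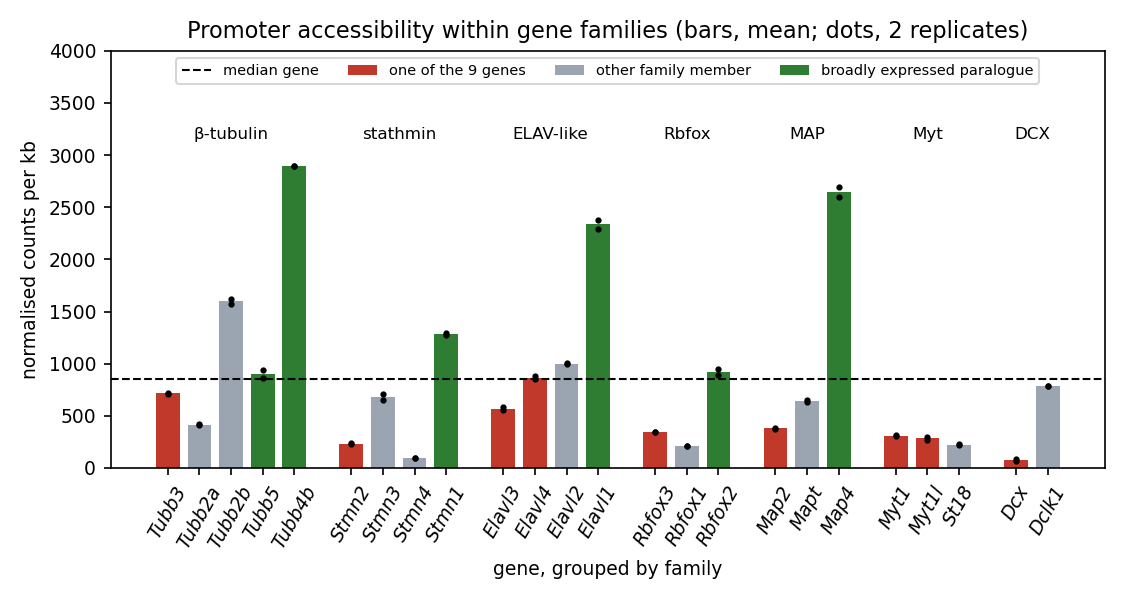
Promoter density in normalised counts per kb by gene family, with bars for the mean, dots for the 2 replicates and a dashed line at the median gene. The broadly expressed paralogues (902 to 2894) exceed the family members among the 9 genes (76.4 to 867), and other family members lie between 94.4 and 1599.

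Most of the assigned intervals were distal and inside the genes. Introns held 84 of the 160 (52.5%), against 35.9% of all intervals, and 46 (28.8%) were intergenic, against 42.1%. Rbfox3 had 44 intervals, Myt1l 42, Elavl4 26, Map2 18, Stmn2 9, Dcx 8, Elavl3 7, Myt1 5 and Tubb3 1, where the median gene with any interval had 4. Rbfox3, Myt1l and Map2 are also the longest genes here, at 422, 395 and 267 kb. Elavl4, at 148 kb, had more intervals than the longer Map2. The counts in promoter intervals were 40.2% of those assigned to the genes in replicate 1 and 40.0% in replicate 2, against 55.5% and 54.6% over all intervals.

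Pooled over the genes, distal intervals were near the level of other distal intervals, whereas promoter intervals were lower in density than other promoters. The median density of the 144 distal intervals was 116 in replicate 1 and 119 in replicate 2, against 123 and 126 over all distal intervals. At the 16 promoter intervals it was 359 and 383, against 810 and 785. The distal medians differed by gene, at 76.7 in Elavl4 and 79.9 in Rbfox3 but 179 in Myt1l and 246 in Elavl3. Those of Myt1, Map2, Dcx and Stmn2 lay between 112 and 137. The ratio of promoter to distal medians was 3.16 ± 0.0695 (SD, n = 2) for the genes and 6.43 ± 0.247 for all intervals. Without the 26 Elavl4 intervals, an alternative added after the values were seen, the ratio for the genes was 2.26. Over all 160 intervals the median was 128 ± 0.473, against 139 ± 2.19.

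A mean normalised count over 100 was taken as the level of a strong element, and 56 of the 160 intervals (35%) exceeded it, against 38.8% of all intervals. Of the 16 promoter intervals 15 did so, against 92.5% of all promoter intervals, and the exception was an Elavl4 internal promoter of 260 bases. Of the 144 distal intervals 41 did so (28.5%), against 31.2% of all distal intervals. The shares for the genes were close to these backgrounds. Among the 24 intervals lying 50 to 100 kb from their start site, 11 of them in Rbfox3 and 7 in Elavl4, 0 exceeded a mean of 100, against 29.9% of all intervals at that distance, and the median density was 73.6 against 121 over all intervals at that distance. Among the 37 intervals farther than 100 kb, 13 (35.1%) exceeded it, against 28.0% of all intervals at that distance.

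**Figure D4:**
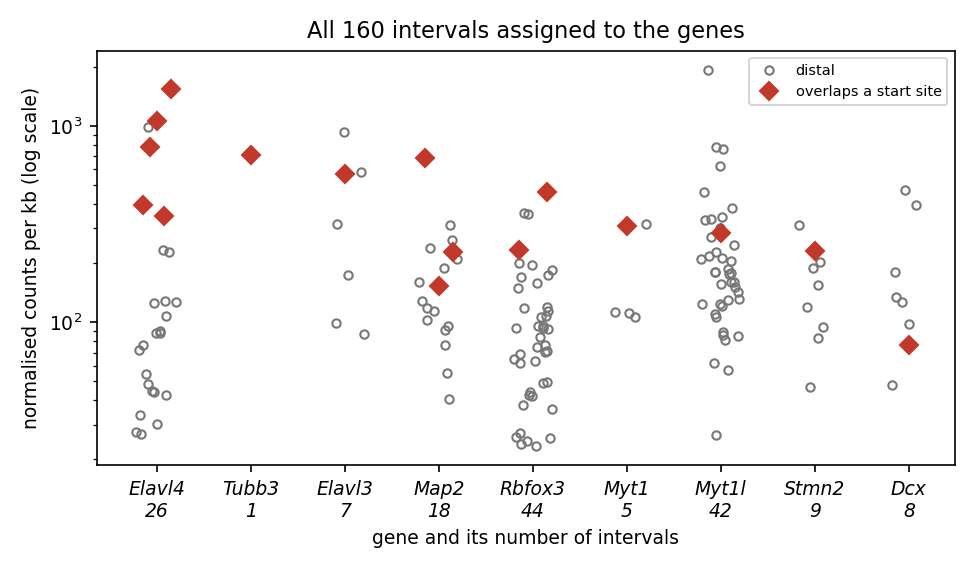
Density in normalised counts per kb (log scale, mean of 2 replicates) of all 160 intervals by gene, with diamonds for promoter intervals and circles for distal ones, and the number of intervals under each name. The highest point is a Myt1l distal interval (1935), and in Dcx 6 distal intervals lie above the promoter (76.4).

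The most open interval of the 9 genes was distal. It lay at chr12:29290713-29291393, between genes and 237 kb upstream of its nearest start site, that of Myt1l, and had 1311 and 1325 counts. Its density was 1935 ± 13.4 (SD, n = 2), above 99.8% of all distal intervals and 6.83 times that of the covered Myt1l promoter. Being nearest to Myt1l does not show that it acts on Myt1l. The central 300 bases, at chr12:29290904-29291203 on the plus strand, are shown as the sequence under the strongest signal, and held neither E-box.
Myt1l, distal interval: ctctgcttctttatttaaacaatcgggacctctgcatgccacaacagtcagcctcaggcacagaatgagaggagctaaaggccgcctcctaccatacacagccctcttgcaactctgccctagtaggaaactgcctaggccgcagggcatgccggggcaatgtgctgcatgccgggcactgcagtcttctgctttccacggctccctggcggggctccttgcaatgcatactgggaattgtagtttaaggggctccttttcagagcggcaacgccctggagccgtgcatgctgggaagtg

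Further Myt1l intervals were also strong. At chr12:29530245-29530769, 1.86 kb from the nearest start site and in an exon of a non-coding transcript, the density was 835 and 735, or 785 ± 70.5. Of the 41 distal intervals of Myt1l, 14 had a mean over 100 (34.1%), close to the 31.2% of all distal intervals, and 20 of its intervals lay upstream of the gene. In Elavl4 the strongest distal interval was intronic, at chr4:110311806-110312710, with 967 and 1015, or 991 ± 33.8. The next in Elavl4, at chr4:110270099-110270691, was at 234 ± 6.10. In Elavl3 an interval 2.38 kb upstream, at chr9:22054408-22055201, was at 932 and 927, or 929 ± 4.10, higher than the Elavl3 promoter in both replicates. This upstream interval lay in an intron of the annotated protein-coding gene Gm49318. The second Elavl3 interval, intronic at chr9:22027926-22029126, was at 546 and 619, or 583 ± 51.5.

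The strongest distal intervals of Dcx were denser than its promoter. The intronic Dcx interval at chrX:143902249-143902714 was at 457 and 485, or 471 ± 19.5. The neighbouring one at chrX:143906349-143907208 was at 405 and 389, or 397 ± 10.9, and the 2 intervals were between 4.76 and 6.45 times as dense as the Dcx promoter in each replicate. Dcx and Myt1l were the genes with the smallest share of counts in promoter intervals, at 15.4% and 3.49%. The centre of the second Dcx interval, chrX:143906629-143906928 on the plus strand, is shown because it held 4 copies of the E-box CAGCTG, in capitals.
Dcx, intronic interval: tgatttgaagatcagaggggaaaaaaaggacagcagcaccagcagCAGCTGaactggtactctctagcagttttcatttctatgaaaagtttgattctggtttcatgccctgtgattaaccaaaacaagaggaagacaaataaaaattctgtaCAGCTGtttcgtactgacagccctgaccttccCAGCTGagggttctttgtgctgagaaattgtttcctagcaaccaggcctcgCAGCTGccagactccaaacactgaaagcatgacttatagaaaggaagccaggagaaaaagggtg

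The remaining genes had weaker distal intervals. In Map2 the strongest were at chr1:66124632-66125374, at 314 ± 5.53 and 49.9 kb upstream, and at chr1:66407388-66407895, at 263 ± 1.24. In Stmn2 they were intergenic, at chr3:8460221-8460703, at 312 ± 33.5, and at chr3:8268230-8268994, at 202 ± 32.2 and 240 kb upstream. The first of these was denser than the Stmn2 promoter in both replicates. In Rbfox3 they were intronic, at chr11:118603051-118603740, at 362 ± 9.43, and at chr11:118573663-118573957, at 354 ± 11.8. In Myt1 they were at chr2:181759140-181759471, at 316 ± 55.2, and at chr2:181795729-181796065, at 113 ± 29.4. Tubb3 had no distal interval.

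E-boxes were counted in the central 300 bases of every interval, on both strands. CAGATG was present in 60 of the 160 intervals (37.5%), against 26.9% of all intervals. In the 16 promoter intervals it was present in 9 (56.3%), against 10.96% of all promoter intervals, and these were the 3 of Map2, 3 of Elavl4, and those of Myt1l, Myt1 and Dcx. CAGCTG was present in 52 of the 160 (32.5%), against 22.2%, and in 3 of the 16 promoter intervals (18.8%), against 17.2% of all promoter intervals. Either E-box was present in 91 (56.9%), against 42.6%. In the same central 300 bases the GC box was present in 6 of the 16 promoter intervals (37.5%), against 58.0%. The centre of an interval need not hold its start site. The outer Map2 and the Elavl3 promoter intervals counted as lacking the GC box, although their RefSeq windows held 5 and 2. The Dcx interval counted as holding CAGATG, although its RefSeq windows held 0. These shares thus describe interval centres and not the bases around start sites. The Sox letters ACAAAG were in 50 intervals (31.3%, against 31.3%), the homeodomain letters TAATTA in 16 (10%, against 7.01%) and the Myt1 letters AAGTTT in 19 (11.9%, against 13.04%). A match is a description of the sequence and not a bound site. The promoter intervals of the genes had a median GC content of 51.5%, against 59.9% for all promoter intervals. Over all distal intervals, with a median GC content of 48.4%, CAGATG was present in 29.2%. The part of base composition in the E-box counts was not tested.

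The RE1 element was searched over whole intervals as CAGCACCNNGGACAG on both strands, with at most 1 mismatch over the 13 fixed letters. It was found in 6 of the 160 intervals (3.75%), against 947 of all intervals (0.792%). With no mismatch it was found in 1 of the 160 (0.625%, against 0.203%), and with at most 2 mismatches in 12 (7.5%, against 5.14%). Of the 6 intervals, 4 belonged to Rbfox3, 1 to Elavl4 and 1, a promoter interval, to Myt1. The Rbfox3 interval at chr11:118584788-118585135 held 3 of the matches, including the exact one, and a further site with 2 mismatches. The stretch with these 4 sites, chr11:118584951-118585125 read on the minus strand, is shown with each 15-base site in capitals.
Rbfox3, intronic stretch: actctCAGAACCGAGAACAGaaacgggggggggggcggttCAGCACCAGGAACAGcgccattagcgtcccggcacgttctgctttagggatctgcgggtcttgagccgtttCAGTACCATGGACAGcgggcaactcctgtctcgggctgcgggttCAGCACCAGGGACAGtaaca
Neighbouring sites started 44, 71 and 35 bases apart. This Rbfox3 interval had only 47 and 57 counts, with a density of 149 ± 20.2. The other RE1 intervals of Rbfox3 were at 362 ± 9.43 (chr11:118603051-118603740), 158 ± 11.4 (chr11:118659252-118659752) and 196 ± 29.1 (chr11:118927185-118927355). That of Elavl4, chr4:110257236-110257644, was at 127 ± 20.7, and that of Myt1, chr2:181762817-181764946, at 309 ± 7.46. The 5 distal intervals with an RE1 match thus lay between the 51.6 and 88.5 percentiles of all distal intervals.

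The same pattern was then searched across the 9 gene bodies with 10 kb on each side, a search added after the values were seen. It had 17 matches with at most 1 mismatch, of which 7 lay inside an interval (41.2%), against 1013 of the 7241 such matches in the genome (14.0%). Of these 7, 5 were in Rbfox3, 1 in Elavl4 and 1 in Myt1, and several of the Rbfox3 matches shared 1 interval. Of the 5 exact matches 1 lay inside an interval (20%), against 258 of the 620 exact matches in the genome (41.6%), so the share was above the genome's with 1 mismatch allowed and below it with none. The exact matches are shown with 5 flanking bases and the 13 fixed letters in capitals, because 4 of them mark sites in or beside the genes where no interval was called. The Stmn2 site was at chr3:8508232-8508246, the Tubb3 site at chr8:123414458-123414472, the Dcx site at chrX:143904877-143904891, and the Rbfox3 sites at chr11:118906752-118906766 (outside intervals) and chr11:118584956-118584970 (inside).
Stmn2: catttCAGCACCacGGACAGcgctt
Tubb3: tgggtCAGCACCtcGGACAGcaacc
Dcx: acattCAGCACCatGGACAGcacac
Rbfox3, outside: ggcggCAGCACCaaGGACAGggcta
Rbfox3, inside: gggttCAGCACCagGGACAGtaaca
The Stmn2 site began 1128 bases before the gene start and 853 bases from the Stmn2 promoter interval. The Tubb3 site lay 3034 bases into the gene, 1240 bases from the Tubb3 promoter interval. The Dcx site lay in the gene 1458 bases from the intronic interval with 4 E-boxes. Counts were not given outside intervals, so the accessibility at these 4 sites is unknown, and the match says nothing on binding by REST. Map2 and Myt1l had no match in this search, and Elavl3 had 1, 522 bases from its upstream interval.

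Replicates were compared for each interval with a two-sided exact binomial test on the 2 counts, which compares the libraries and not conditions. After Benjamini-Hochberg adjustment over all 119502 intervals, 0 of the 160 had an adjusted p under 0.01, against 0.0% of all intervals, and the lowest adjusted p among them was 0.366. With an unadjusted p under 0.05 there were 10 (6.25%), against 8.39% of all intervals. The largest difference among intervals with a mean over 100 was 1.36-fold, in an intron of Map2 at chr1:66395128-66396136, with 119 and 87 counts (adjusted p = 0.520). It was followed by an intron of Dcx at chrX:143897100-143898258, with 97 and 129 counts (adjusted p = 0.569), and the upstream Myt1 interval at chr2:181759140-181759471, with 92 and 118 (adjusted p = 0.662). At these depths the replicates did not differ detectably at any of the named intervals.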

How the data were processed

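ATAC-seq was analysed in 2 live-cell libraries of 1 group. The authors processed reads with the nf-core atacseq pipeline (1.2.0) against mm10, called peaks with MACS, and deposited raw fragment counts over consensus intervals of 5 libraries. Per the file headers, featureCounts 2.0.1 counted pairs in each interval they overlapped, with a minimum overlap fraction of 0.2, so a fragment can enter more than 1 interval. A further 3 count columns, which match none of the samples here, were left unused but contributed to the interval set, and weak sites without a peak have no counts.

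Size factors came from DESeq2 (1.42.0, R 4.3.3), and normalised counts were divided by interval length. Start sites were those of protein-coding transcripts in GENCODE M21 (GRCm38, the assembly of mm10). All intervals ended within its chromosomes. The two-sided exact binomial p was the sum over outcomes no more likely than the observed, and log2 ratios used a pseudocount of 1. On simulated Poisson counts over 119502 intervals, the test recovered 99 of 100 intervals changed 2-fold and 100 of 100 changed 3-fold, with 2 false calls. The changed intervals were drawn only from those with a mean over 100, so recovery at weaker intervals was not measured. Fragments carried no molecular identifiers, so p-values cover counting error only. Sequences came from RefSeq GRCm38.p6. The tools were edgeR 4.0.16 for TMM, scipy 1.17.1 and statsmodels 0.14.6 for the test, pysam 0.24.0 for sequences and matplotlib 3.10.9 for plots, with pandas 2.3.3 and numpy 2.4.6 under Python 3.11.15.

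Named intervals were the promoter intervals, the 2 densest distal intervals of each gene, those with an RE1 match, and the 3 with the largest replicate difference among means over 100. Of other lists, relatives of the 9 genes were named. Further features were named as cell type checks or for the reasons given beside them. The genes and lists were chosen with earlier results of these data known. Alternatives covered normalisation, a filter at a mean of 10, the start sites, the distance measure, counts per interval, promoters within 1 kb, RE1 mismatches and each replicate alone.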

Additional observations from a re-analysis of the deposited data

How the results depend on the processing

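The median density of the 160 intervals was 128. It was 139 with the start of the gene record only, 125 with starts of all transcripts, 132 with a mean normalised count of at least 10, and 64.7 in normalised counts per interval. The promoter to distal ratio of 3.16 was 4.32, 3.26, 3.05 and 11.02 under those settings, and 2.16 with promoters within 1 kb of a start site. The ratio over all intervals, 6.43 in the main setting, was not recomputed under the alternatives. Their ratios therefore cannot be set against it. Leaving out the intervals of a gene, chosen after seeing the data, gave medians of 137 without Elavl4, 154 without Rbfox3 and 110.0 without Myt1l, and ratios of 2.26, 2.73 and 3.98. Leaving out each replicate gave medians from 128.1 to 128.8, ratios from 3.11 to 3.21 and 55 to 58 intervals over a mean of 100. With gene records the number of assigned intervals fell to 109, of which 44 had a mean over 100. With edgeR TMM or total counts, 0 of the 160 intervals differed between replicates, and the order of the 9 promoters was unchanged, while promoters within 1 kb exchanged Stmn2 and Myt1l. The cause of these shifts was not tested. No paired analysis was possible because the libraries form only 1 group. Groups of 2 could not be tested for outlying samples. Density averages over the length of an interval, counts outside intervals are unknown, and the nearest start site need not be the regulated gene.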

Other observations

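CTCF is a factor that binds insulator and loop-anchor sites. The letters CCANNAGNGGGC, searched after the values were seen, occurred in the central 300 bases of 4 of the 160 intervals (2.5%), against 2.88% of all intervals, and in 0 of the 16 promoter intervals, against 0.841%. Among the 41 distal intervals of the genes with a mean over 100, 2 held it, against 3.13% of all such intervals.

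The homeodomain letters TAATTA were present in 3 of the 16 promoter intervals (18.8%), against 1.56% of all promoter intervals, and the Sox letters ACAAAG in 6 (37.5%), against 12.8%. These promoter intervals were also poorer in GC than others, at 51.5% against 59.9%, and the part of base composition in these counts was not tested.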
